A study of Sus scrofa with 6 samples.

Results

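Complement is a cascade of plasma and tissue proteins that tags targets for removal. C1q, a bundle of A, B and C chains, recognises a target and switches on the proteases C1r and C1s, after which C3 is cleaved and deposited, factor D drives the alternative amplification loop, and C5b with C6, C7, C8 and C9 forms the membrane attack complex. In brain and cord, microglia are the main makers of C1q, C3 comes from glia and other cells, and deposited C1q and C3 are known for marking synapses for removal during development. C1 inhibitor, the product of SERPING1, blocks C1r, C1s and the mannose-binding lectin proteases.

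The complement components and regulators described here are 9 genes taken by symbol, C1QA, C1QB, C1QC, C1R, C1S, C3, C7, CFD and SERPING1. Of them 7 have a row by that name among the 28965 genes of the count files. C1R and C1S have none and were not analysed here. All 7 passed the filter on low counts and were among the 14566 genes tested.

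RNA was sequenced from the cervical spinal cord of 6 male pigs, each aged 140 days, with 1 library per animal. In 3 of them UBE3A was intact (wild type), and 3 had inherited a UBE3A deletion through the mother (the deletion group); neither the extent of the deletion nor the breed is stated in the labels. The titles call the tissue brain, while the source field names cervical spinal cord. UBE3A encodes a ubiquitin ligase that neurons make from the maternal copy, so the comparison asks how cord RNA differs without that copy. Levels below are CPM, read counts scaled to library size by TMM, written in the order of replicates 1, 2 and 3 of a genotype; the numbers only name the animals.

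UBE3A itself lay at 57.0, 65.5 and 60.6 CPM in wild type, against 21.4, 27.1 and 21.4 CPM with the deletion, so each library had the level its label calls for. Libraries held 17181003 to 22492366 exon reads. Central nervous tissue markers were present in both groups, with means of 20159 and 19403 CPM for GFAP of astrocytes, 74172 and 72237 CPM for MBP of myelin and 455 and 862 CPM for SNAP25 of neurons, in wild type and deletion. Wild-type replicate 3 stood apart from the others, with 1.97 CPM of HOXC8, a positional gene of the trunk, against 23.2 to 32.1 CPM elsewhere, and 5.88% of its reads on mitochondrial mRNAs against 9.01 to 12.4%. Each C1q chain and each member whose groups did not overlap is therefore also given without that library.

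The members split into 4 whose levels were close in the 2 genotypes and 3 that were lower in the deletion group. The C1q chains and C3 had fitted deletion levels of 89.5 to 94.3% of wild type, and none passed the test. SERPING1 fell to 46.4% of the wild-type level and was the only member past an adjusted p of 0.05 (edgeR's quasi-likelihood test, Benjamini-Hochberg adjustment over all genes tested). C7 and CFD lay at 15.1% and 57.5% without passing. So 1 of 7 members was called lower and 0 higher, where 0.844% of all genes tested were called lower and 0.178% higher (123 and 26 genes, or 94 and 6 under total-count scaling); 3 of the 7 had an unadjusted p under 0.05, all lower, where 9.09% of all genes did so in that direction.

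**Figure D1:**
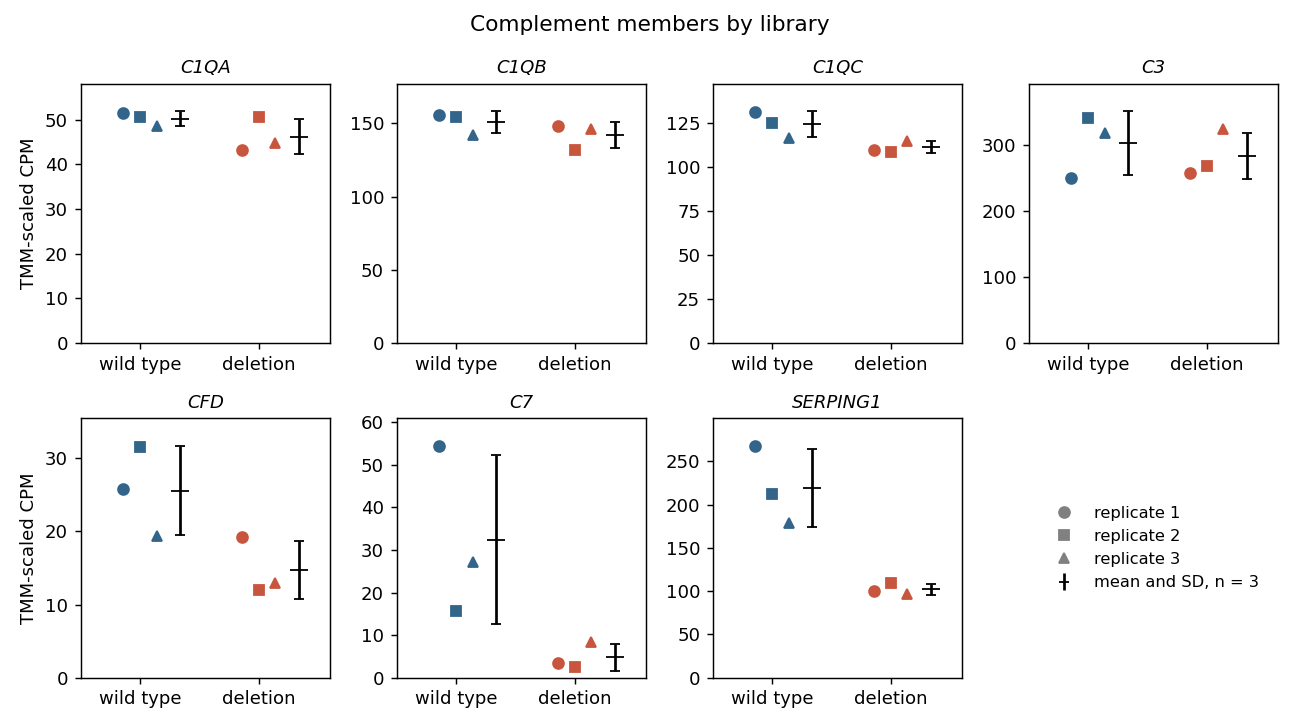
TMM-scaled CPM of each complement member (vertical axes, each starting at 0) in the 3 wild-type and 3 deletion libraries; symbols mark replicates 1 to 3, and the black bar is the mean with its SD (n = 3). The deletion libraries of SERPING1 sit between 96.3 and 109 CPM, below all wild-type libraries, while those of C1QA, C1QB and C3 overlap the wild-type range.

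C1QA, C1QB and C1QC encode the A, B and C chains of C1q, the recognition molecule of the classical pathway. In the RefSeq table of assembly Sscrofa11.1 the genes are neighbours in the order C1QA, C1QC, C1QB, with 0 other protein-coding genes between each adjacent pair. C1QA levels were 51.6, 50.7 and 48.5 CPM in wild type, against 43.1, 50.5 and 44.8 CPM with the deletion. The groups overlapped only through wild-type replicate 3, which lay below deletion replicate 2. C1QB lay at 156, 154 and 142 CPM in wild type, against 149, 132 and 146 CPM with the deletion. Its overlap too came only through wild-type replicate 3.

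C1QC lay at 131, 125 and 116 CPM in wild type, against 110, 108 and 115 CPM with the deletion. Here the groups did not overlap, but the gap between wild-type replicate 3 and deletion replicate 3 was small. The log2 fold changes of deletion over wild type were -0.12 (SE 0.11) for C1QA, -0.09 (SE 0.11) for C1QB and -0.16 (SE 0.11) for C1QC. Their adjusted p-values by edgeR's quasi-likelihood test were 0.612, 0.752 and 0.477. The 95% intervals of the deletion level ran from 77.3 to 109%, 78.6 to 113% and 75.3 to 106% of wild type, all of which include equal levels. Without wild-type replicate 3 the log2 fold changes were -0.21 for C1QA, -0.19 for C1QB and -0.26 for C1QC. The adjusted p-values by edgeR's quasi-likelihood test were then 0.280, 0.349 and 0.160.

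In wild type the C1q genes were the steadiest members, and with the deletion SERPING1 varied as little. C1q coefficients of variation within a genotype ran from 3.09 to 8.38%, where the median over all genes tested was 16.4% in wild type and 11.6% in the deletion group. Per transcript length, in the authors' TPM, which divides reads by transcript length, the order was C1QC above C1QB above C1QA in each of the 6 libraries. C1QC held 3.36 to 4.01 times the TPM of C1QA, and C1QB held 2.08 to 2.74 times. The ratio of C1QC to C1QB ranged from 1.45 to 1.65, with a mean of 1.61 ± 0.0344 in wild type and 1.54 ± 0.0813 in the deletion group (SD, n = 3 each).

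Other microglia markers were compared beside C1q. The summed level of the 12 microglia markers with a row, a list from which C1q genes were kept out, ran from 771 to 827 CPM in wild type and from 705 to 767 CPM in the deletion group. The sums did not overlap; of the 12 markers 0 passed the test, 8 had negative values and the median log2 fold change was -0.08. In 2 of them the groups did not overlap, both with the deletion lower. Over all genes tested, 11.2% stood apart in that direction and 43.3% had negative values. OLFML3 had 129 ± 8.66 and 83.1 ± 6.62 CPM (log2 fold change -0.63, edgeR quasi-likelihood adjusted p 0.0552). CTSS, named after its values were seen, had 40.4 ± 5.36 and 24.5 ± 5.24 CPM (-0.72, edgeR quasi-likelihood adjusted p 0.0943; SD, n = 3 each). CSF1R, the receptor that microglia need to survive, lay at 291 ± 3.89 CPM in wild type, against 278 ± 12.9 CPM with the deletion (SD, n = 3 each). The part of these markers in the C1q values was not tested. In bulk tissue, fewer cells of a type and less RNA per cell cannot be told apart.

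C3, the central component on which all activation routes meet, varied more between animals than between genotypes. Its wild-type libraries held 249.8, 342 and 319 CPM and its deletion libraries 259, 269 and 325 CPM. The lowest and the highest values were both wild type, and the groups overlapped over most of their range. Mean C3 was 304 ± 48.1 against 284 ± 35.4 CPM (SD, n = 3 each). On the log2 scale the difference was -0.10 (SE 0.17), and edgeR's quasi-likelihood test gave an adjusted p of 0.815. The 95% interval of the deletion level ran from 71.7 to 122% of wild type, and the value moved between -0.24 and -0.01 over the 15 alternative settings. The ratio of C3 to the summed C1q chains, in TPM, was 0.351 ± 0.0657 in wild type and 0.357 ± 0.0377 in the deletion group (SD, n = 3 each).

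SERPING1 fell in the deletion group, and it is the member that restrains the C1 complex. Wild-type libraries held 268, 213 and 179 CPM of SERPING1, and deletion libraries held 100.4, 109 and 96.3 CPM. Every deletion library lay below every wild-type library, and the deletion values lay closer together than the wild-type values. The means were 219.6 ± 44.9 and 102 ± 6.59 CPM (SD, n = 3 each). SERPING1 fell by 1.11 on the log2 scale (SE 0.17), to 46.4% of wild type with a 95% interval of 35.6 to 60.7%, at an adjusted p of 0.0443 by edgeR's quasi-likelihood test. Taken alone, its levels gave p = 0.1 in a two-sided exact permutation test, and a design of 3 against 3 animals cannot go lower.

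The ratio of SERPING1 to C1q was taken within each library. C1R and C1S, whose products C1 inhibitor blocks, have no row and are not part of it. SERPING1 over the summed C1q chains, in TPM, was 0.759, 0.622 and 0.561 in wild type and 0.325, 0.363 and 0.305 in the deletion group. No deletion library reached a wild-type one. With C1q levels close in the 2 genotypes, this restates the SERPING1 difference and adds no separate result. SERPING1 was the first of the 7 members by TPM in every wild-type library, while C1QC was the first in every deletion library and SERPING1 ranked 3, 2 and 4 there. SERPING1 over C3 was 1.94 ± 0.720 in wild type and 0.937 ± 0.151 in the deletion group (SD, n = 3 each).

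**Figure D2:**
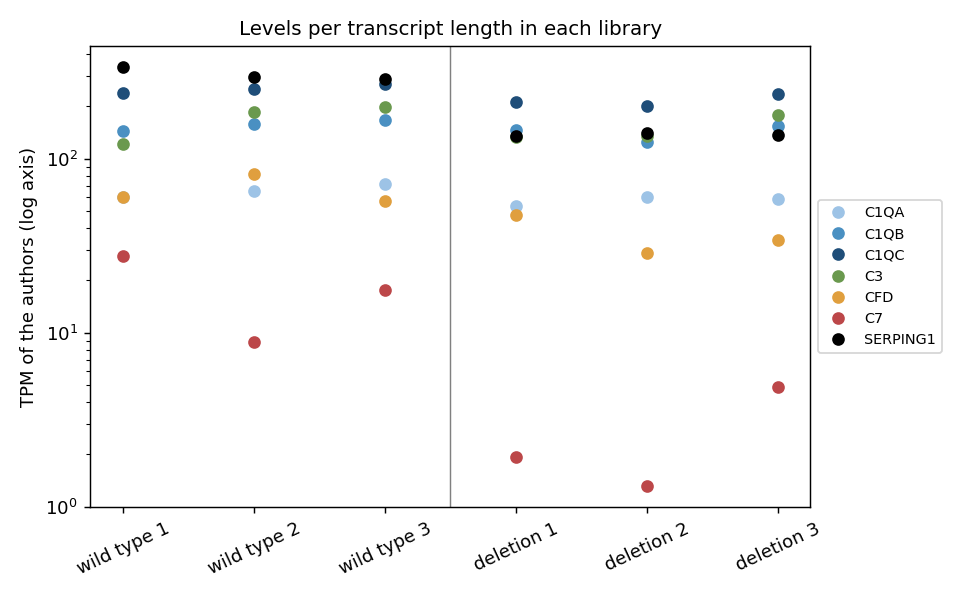
Deposited TPM of the 7 members (log axis) in each library, wild type left and deletion right of the line. SERPING1 tops all members in the wild-type libraries (285 to 336 TPM) and sits at 134 to 140 TPM in the deletion libraries, below C1QC.

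With all animals SERPING1 was called by each tool, at adjusted p-values of 8.52e-08 with DESeq2 and 0.0160 with voom, but the call was lost when most single libraries were left out. Left out in turn, wild-type replicate 1 gave a log2 fold change of -0.94 (adjusted p 0.152), wild-type replicate 2 -1.15 (0.0744), deletion replicate 1 -1.09 (0.134), deletion replicate 2 -1.16 (0.208) and deletion replicate 3 -1.11 (0.112), all by edgeR's quasi-likelihood test and none past the threshold. Without wild-type replicate 3 it was -1.29 at an adjusted p of 0.00508. The animal IDs begin with 14 in replicate 1 of each genotype and with 15 in the rest; blocking on the prefix gave -1.09 and an edgeR quasi-likelihood adjusted p of 0.0896. Within the prefixes, the deletion level was 0.375 and 0.525 times wild type. The authors' deposited table lists SERPING1 at a signed fold change of -2.13 with a false discovery rate of 7.52e-07.

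C7, the terminal component that anchors the forming attack complex to a membrane, had the widest gap and the widest spread. C7 levels were 54.4, 15.6 and 27.2 CPM across wild type, against 3.55, 2.52 and 8.47 CPM across the deletion group. The groups did not overlap, but wild-type replicate 1 alone held more than the other 2 wild-type libraries together. The means were 32.4 ± 19.9 and 4.84 ± 3.18 CPM (SD, n = 3 each), with coefficients of variation of 61.4 and 65.7%. The log2 fold change was -2.72 (SE 0.58), or 15.1% of wild type with a 95% interval of 5.95 to 38.5%, and the adjusted p was 0.0735 by edgeR's quasi-likelihood test.

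C7 kept its direction in every alternative, from -3.44 to -1.99 on the log2 scale, and passed the threshold in 1 of them. That was DESeq2, with -2.78 at an adjusted p of 4.92e-06. Without wild-type replicate 3 the value was -2.88 (edgeR's quasi-likelihood adjusted p 0.0758), and without wild-type replicate 1 it was -2.13 (0.201). The deletion level was 0.0652 times wild type in the animals of prefix 14 and 0.256 times in those of prefix 15. The authors' deposited table gives C7 a signed fold change of -6.60 and a false discovery rate of 1.65e-10.

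CFD, or factor D, the serine protease that cleaves factor B in the alternative pathway and that fat cells secrete as adipsin, also lay lower. Wild-type libraries held 25.9, 31.5 and 19.3 CPM of CFD, and deletion libraries held 19.2, 11.96 and 12.96 CPM. The groups only just missed each other, as wild-type replicate 3 and deletion replicate 1 were nearly equal. Mean CFD was 25.6 ± 6.10 against 14.7 ± 3.94 CPM (SD, n = 3 each). The log2 fold change was -0.80 (SE 0.24), at an adjusted p of 0.124 in edgeR's quasi-likelihood test. The 95% interval of the deletion level ran from 39.2 to 84.6% of wild type.

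CFD passed the threshold in 1 alternative, again DESeq2, at -0.84 and an adjusted p of 0.0287. Without wild-type replicate 3 the value was -1.03 (edgeR's quasi-likelihood adjusted p 0.0583), and without wild-type replicate 2, the library with the highest CFD, it was -0.63 (0.285). The authors' deposited table lists CFD at a signed fold change of -1.72 with a false discovery rate of 0.0195. Among all 7 members that table calls 3 lower and 0 higher, where it calls 3.81% of its genes lower, and DESeq2 likewise calls 3, where it calls 5.48% of genes lower.

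**Figure D3:**
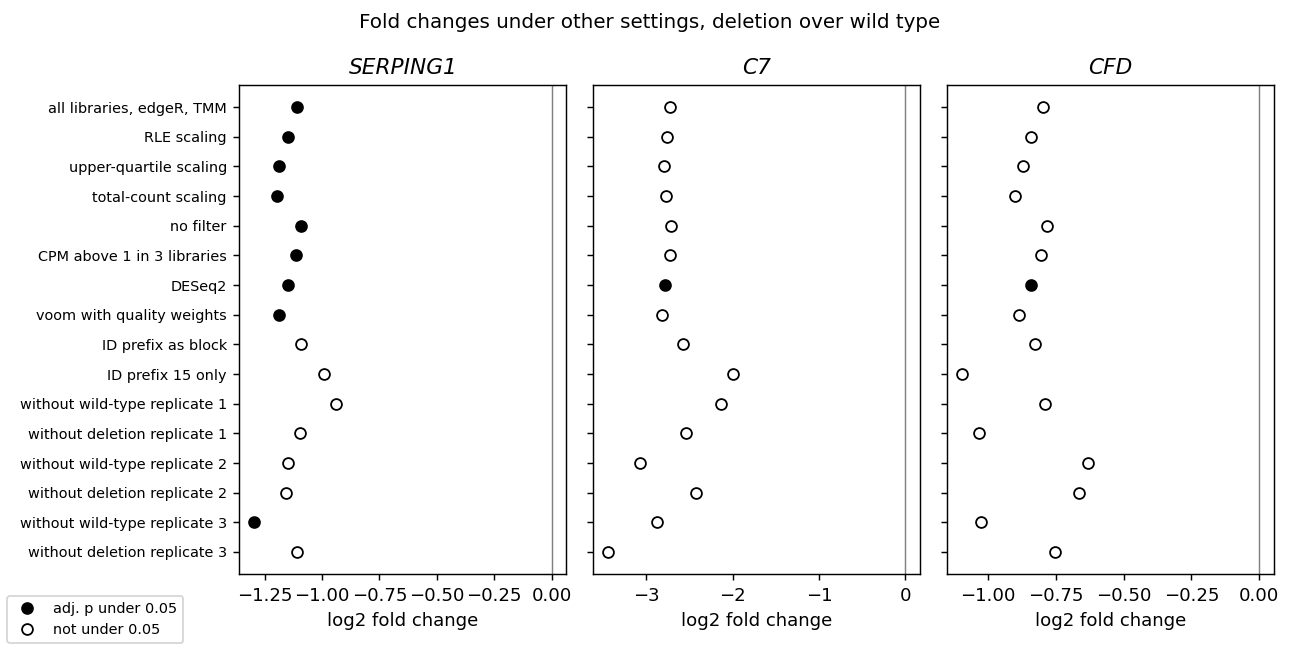
Log2 fold change of SERPING1, C7 and CFD (deletion over wild type, horizontal axes) under each setting (rows); filled points have an adjusted p under 0.05. All points lie left of 0; those of SERPING1 are filled in the scaling, filter and tool settings and without wild-type replicate 3, and those of C7 and CFD with DESeq2 only.

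In all, the groups did not overlap in 4 of the 7 members, C1QC, SERPING1, C7 and CFD, each with the deletion lower. Over all genes tested the groups stood apart in that direction in 11.2% and in the opposite one in 15.2%. All 7 log2 fold changes were negative with a median of -0.16, where 43.3% of all genes tested were negative and their median was 0.05. Neither the count nor the median is a test, since the genes were picked with earlier results of these data known.

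Summed markers of vessels, meninges and nerve roots were lower in the deletion group, as SERPING1, C7 and CFD were. The 11 fibroblast and meninges markers summed to 2471 to 3150 CPM in wild type and 400 to 706 CPM in the deletion group. Of the 10 tested, 6 were called lower, where 0.844% of all genes tested were. COL1A1 lay at 1059 ± 65.8 and 149 ± 82.1 CPM. PDGFRA and SLC6A20 of that list, named after their values were seen, lay at 102 and 99.4% of wild type. The 8 mural markers of vessel walls summed to 485 to 2589 and 199.6 to 260.4 CPM, with 3 called lower, and the 6 Schwann cell markers to 514 to 3593 and 52.2 to 117 CPM, with PRX called lower. The 8 endothelial markers summed to 383 to 593 and 263 to 364 CPM with 0 called. The 7 border macrophage markers summed to 35.2 to 77.1 and 19.3 to 23.2 CPM. All 7 had negative log2 fold changes, with a median of -1.56. At an unadjusted p under 0.05 (edgeR) 5 of them were lower, where 9.09% of all genes tested were. Of the border macrophage markers only LYVE1, named after its value was seen, was called lower. LYVE1 had 42, 64 and 28 reads in wild type and 6, 4 and 7 with the deletion. Its wild-type reads carried it past the filter on low counts, so that call alone says little about border macrophages. The 8 neuron markers with a row summed to 826 to 3060 CPM in wild type and 4244 to 8915 CPM with the deletion. Of them 0 passed the test, and 5 were higher at an unadjusted p under 0.05 (edgeR), where 11.1% of all genes tested were. None of these 6 sums overlapped between the groups, and their part in the fall of SERPING1 and the lower C7 and CFD was not tested.

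The order of libraries within a genotype differed between members and marker sums. In wild type, C7 was lowest in replicate 2, the library with the highest mural, Schwann cell, endothelial and border macrophage sums. SERPING1 and the fibroblast sum shared the order replicate 1, 2, 3 from high to low in wild type but not in the deletion group. CFD was highest in wild-type replicate 2, which also stood alone in fat: the 6 adipocyte markers, a list without CFD, summed to 412 CPM there, 25.03 CPM in deletion replicate 2 and 4.93 to 6.57 CPM in the other 4 libraries. In wild-type replicate 1 CFD was 25.9 CPM and the fat sum 6.57 CPM, and the part of fat in the CFD values was not tested. Blood myeloid and red cell sums overlapped between the groups, at 24.6 to 32.2 against 24.7 to 25.3 CPM and at 31.1 to 194 against 8.86 to 115 CPM. So did the astrocyte sums (20456 to 24455 against 20286 to 25991 CPM), the oligodendrocyte sums (74975 to 129276 against 85008 to 127319 CPM) and the hepatocyte sums (305 to 603 against 243 to 312 CPM). Most of the blood myeloid sum was CD14, with means of 20.2 and 20.7 CPM. Of the 4 blood myeloid markers tested 0 were called, 3 had negative values and 2 were lower at an unadjusted p under 0.05 (edgeR). Over all genes tested 9.09% were so. S100A12, named after its values were seen, had 12, 69 and 19 reads in wild type and 1, 9 and 3 with the deletion.

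**Figure D4:**
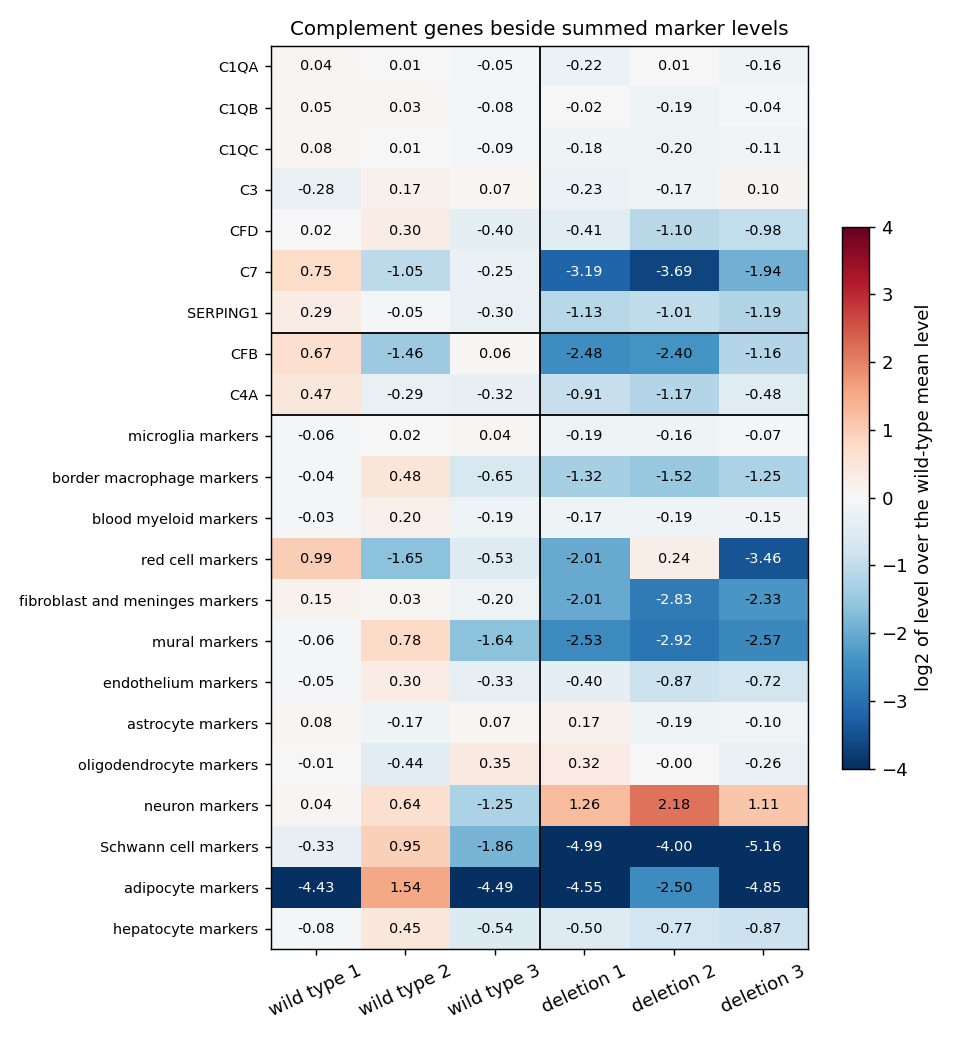
Log2 of each level over its wild-type mean (colour and number) for the 7 members, for CFB and C4A, and for summed cell type markers, by library. The C1q and C3 rows stay between -0.28 and 0.17, like the microglia row, while SERPING1, C7 and CFD are lower in the deletion libraries, as are the fibroblast, mural and Schwann cell rows.

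Around the members, 42 other complement genes were listed by role, of which 30 had a row and 20 were tested. By edgeR's quasi-likelihood test 0 were called, with 5 lower and 2 higher at an unadjusted p under 0.05, where 9.09% and 11.1% of all genes tested were so, and the median log2 fold change was -0.10. CFB, the factor B that factor D cleaves, had levels of 65.0, 14.8 and 42.5 CPM across wild type, against 7.29, 7.71 and 18.3 CPM across the deletion group. Its groups overlapped, since wild-type replicate 2 fell below deletion replicate 3, and on the log2 scale the difference was -1.87 (SE 0.57; edgeR quasi-likelihood adjusted p 0.132). C4A, which encodes the C4 that C1s cleaves, lay at 238, 141 and 137 CPM in wild type, against 91.2, 76.6 and 123 CPM with the deletion, without overlap. C4A differed by -0.82 (SE 0.26) on the log2 scale, at an adjusted p of 0.142 in edgeR's quasi-likelihood test.

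Of the other initiators, the lectin pathway proteases MASP1 and MASP2, which C1 inhibitor also blocks, had log2 fold changes of -0.30 (SE 0.12) and -0.67 (SE 0.32). MASP1 lay at 29.9 ± 2.55 CPM in wild type, against 24.4 ± 1.38 CPM with the deletion (SD, n = 3 each), and neither passed (edgeR's quasi-likelihood adjusted p 0.212 and 0.293). Among fluid-phase regulators, CFI, the protease that degrades C3b and C4b, gave -0.37 (SE 0.17), and CLU, or clusterin, which holds back the attack complex, gave 0.17 (SE 0.18). CLU was abundant, at 3600 ± 564 and 4059 ± 71.2 CPM (SD, n = 3 each).

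The 3 membrane regulators tested had positive values. CD46, CD55, CD59, CSMD2 and CR1, also listed in that role, had no row, so their levels are not known here. SUSD4 and CSMD3, which carry complement control domains and are expressed in brain, gave 0.71 (SE 0.15) and 0.76 (SE 0.22), with edgeR quasi-likelihood adjusted p-values of 0.0675 and 0.118. SUSD4 lay at 8.80, 9.90 and 10.0 CPM in wild type, against 13.7, 17.2 and 16.1 CPM with the deletion, without overlap, in the same direction as the neuron marker sum, whose part was not tested. Among receptors, CD93 of endothelium and myeloid cells gave -0.74 (SE 0.28), and C5AR1, the receptor of C5a, gave -0.46 (SE 0.18), at adjusted p-values of 0.2002 and 0.205 by edgeR's quasi-likelihood test. DESeq2 called C4A lower (-0.87, adjusted p 0.0212) and SUSD4 higher (0.67, adjusted p 0.00656) and no other gene of this list. That is 1 of the 20 tested in each direction, where DESeq2 called 5.48% of all genes lower and 573 of 14265 higher. The authors' deposited table calls 5 of the 27 genes of this list with a value lower and 1 higher. Over all its genes it calls 3.81% lower, and its share called higher was not worked out. The 5 include FCN2 and C4BPA, described below, whose reads lay mostly in 1 or 2 wild-type animals. In the authors' deposited table CFB (false discovery rate 1.26e-04), C4A (0.00564) and CD93 (0.0429) are among the lower ones and SUSD4 (0.0429) is the higher one.

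**Figure D5:**
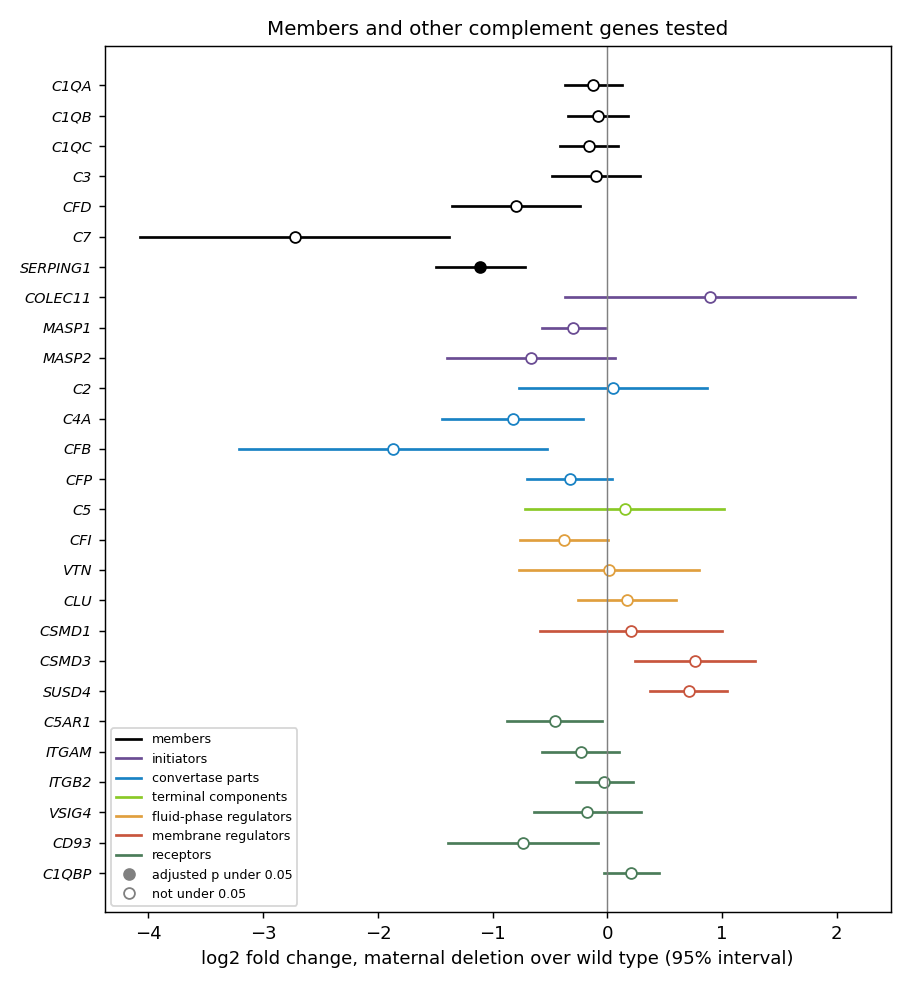
Log2 fold change of deletion over wild type with its 95% interval for the 7 members (black) and the 20 other complement genes tested (coloured by role); the filled point has an adjusted p under 0.05. SERPING1 at -1.11 is the only filled point, and the intervals of the C1q chains and C3 span 0.

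Terminal components other than C7 were scarce where they had a row, and C8G had none. C5, which starts the attack complex, was the only other one tested, at 1.25 ± 0.423 CPM in wild type, against 1.40 ± 0.273 CPM with the deletion (SD, n = 3 each; log2 fold change 0.15, SE 0.37). C6, separated from C7 by 1 other protein-coding gene in the RefSeq table, had 11 reads over all libraries where C7 had 2195. C8B and C9 had 9 and 3 reads, and C8A and the lectin gene MBL2 had 0. A count of 0 allows up to 3 reads, or 0.1296 to 0.176 CPM depending on the library, for counting error only. The liver markers APOB and AHSG had 1 and 5 reads over all libraries, and FGB had 386. ALB lay at 4.15 ± 0.298 and 5.19 ± 0.195 CPM (SD, n = 3 each). Not all liver markers were scarce. APOA1, the most abundant of that list, lay at 435 ± 151 CPM in wild type and 263 ± 36.0 CPM with the deletion (SD, n = 3 each). Its groups overlapped (log2 fold change -0.73, edgeR quasi-likelihood adjusted p 0.165).

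A pair of genes that the filter on low counts removed, named here after their values were seen, had most of their reads in 1 or 2 wild-type animals. FCN2, a ficolin that starts the lectin pathway, had 294, 483 and 1 reads in wild type and 0, 7 and 2 in the deletion group. C4BPA, a subunit of the C4b-binding protein, had 3, 491 and 1 reads in wild type and 3, 23 and 0 in the deletion group. The authors' deposited table lists them at signed fold changes of -80.4 and -15.5 with false discovery rates of 5.86e-09 and 0.0108. In both, wild-type replicate 3 lay within the deletion range.

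Likeness between genes was measured as the mean absolute difference of their log2 CPM profiles over the 6 libraries, each centred on its own mean, with 0.5 CPM added. The C1q chains lay closer to each other than to the median gene, at 0.05 for C1QB with C1QC, 0.07 for C1QA with C1QC and 0.09 for C1QA with C1QB, where the median gene lay 0.19 to 0.20 away. Among the 11571 genes compared, C1QC ranked 66 in nearness to C1QB, C1QC ranked 190 in nearness to C1QA and C1QB ranked 715 in nearness to C1QA; SNRPB2 and MRPS7 were the nearest to C1QB. SERPING1 was nearest to GADD45B (0.07), OGN (0.07) and TXNIP (0.11), at a median of 0.58. C7 was nearest to ISLR (0.25), ADAMTSL3 (0.29) and CEMIP (0.29), at a median of 1.33, and CFD to ESAM (0.08), MARVELD2 (0.08) and ATOH8 (0.09), at a median of 0.47. Within complement, the tested gene nearest to C7 was CFB (0.44), followed by SERPING1 (0.86) and C4A (0.90); the nearest to SERPING1 was C4A (0.25) and the nearest to CFD was CD93 (0.15). These distances are descriptions over 6 libraries that share the genotype contrast.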

How the data were processed

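Counts of exon reads per Ensembl gene were deposited by the authors for each library, per the file headers, with blanks read as 0. The labels' protocols describe poly(A)-selected stranded libraries; aligner, counter, build and use of strand in counting are not stated, so reads of antisense partners cannot be told apart. The deposited TPM served to compare members per length. The deposited RPKM, and a deposited signal column headed CPM, were not used. The authors' deposited series file gives a signed fold change (a score here) with p-values and false discovery rates, by a method they do not state.

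Genes were kept by filterByExpr, scaled by TMM and tested in edgeR 4.0.16 (R 4.3.3) with robust quasi-likelihood and Benjamini-Hochberg adjustment; intervals are 95%. The threshold was an adjusted p of 0.05. The test was run on simulated counts drawn without an outlying library, mixed tissue or an ID prefix effect. That check therefore does not cover those features of the data. DESeq2 1.42.0 and limma 3.58.1 (voom with quality weights) were alternatives, beside other scalings and filters, the ID prefix as a block, and leaving out each library. CFB and CFI were named through a table of gene IDs. All 15 pairs of libraries differed beyond sampling noise (chi-square per degree of freedom 29.7 or more). Floors are 3 reads and, like intervals of counts, cover counting error only.

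The members, the other complement genes and the marker lists were chosen with earlier results of these data known. The genes named are all members, the 2 of each role with the smallest p, the 3 nearest profiles, the 2 most abundant markers of a list and those at 0, of which some are printed.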

Additional observations from a re-analysis of the deposited data

How the results depend on the processing

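The 7 members had negative log2 fold changes in all 15 alternatives. The count of members lower, 1 with all libraries, was 3 with DESeq2, 0 with the ID prefix as a block, 0 in animals of prefix 15 alone (2 against 2), and 0 to 1 with a library left out, the 1 being without wild-type replicate 3. SERPING1 was called in 8 of the alternatives, at -1.29 to -0.94 over all of them, and at -0.99 (edgeR quasi-likelihood adjusted p 0.447) in prefix 15 alone. Of the other complement genes DESeq2 called 1 lower and 1 higher, and leaving out a library gave 0 to 1 lower. The 1 was FCN2 (edgeR quasi-likelihood, adjusted p 0.00477) when wild-type replicate 3 with its 1 FCN2 read was dropped. With all libraries the filter on low counts removed FCN2. It was kept here because the remaining wild-type libraries held 294 and 483 reads. Dropping the wild-type animal that lacked FCN2 thus selected for the difference, and no conclusion is drawn from the call. C5 reversed to -0.18 in prefix 15 alone, -0.0945 without wild-type replicate 1 and -0.02 without deletion replicate 3 (-0.0945 to 0.30 over the libraries left out). CLU reversed to -0.000801 without wild-type replicate 3 (-0.000801 to 0.28).

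Over all genes, 123 were lower and 26 higher; DESeq2 gave 782 and 573, voom 344 and 94, the prefix block 3 and 0, and prefix 15 alone 0 and 0 (1608 at an unadjusted p under 0.05). The higher count was 9 under RLE scaling, 6 under total-count scaling and 77 with no filter. Leaving out a library gave 0 to 639 lower and 0 to 120 higher, the most without wild-type replicate 3; 0 of either were called without wild-type replicate 1, deletion replicate 2 or deletion replicate 3 (2420, 1888 and 2380 at an unadjusted p under 0.05). UBE3A was -1.39 (edgeR quasi-likelihood adjusted p 0.0526) with the block, -1.44 (0.358) in prefix 15 alone and -1.51 to -1.33 with a library left out. The causes were not tested. Unique exon reads are not among the columns used here, so that alternative was not run. No paired analysis was possible because the labels number no replicates.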
